A study of Homo sapiens with 3 samples.

Results

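The genes described here make the peptides that MHC class I molecules display on the cell surface and load them. They are 10 genes (PSMB8, PSMB9, PSMB10, TAP1, TAP2, TAPBP, ERAP1, B2M, HLA-E and HLA-F), taken by their symbol in GEO's annotation of the array and not by their values, and measured by 22 of the 22277 probe sets. RNA came from HEK293T cells, a line derived from human embryonic kidney, transfected by Fugene HD with dCas9VP160, a nuclease-dead Cas9 fused to a transcriptional activation domain. The 3 arrays differed in the guide RNA: sgTetOmut, a mutated form of sgTetO that the labels call a non-targeting control, sgTetO, directed to the TetO promoter, and sgIL1RN1~3, directed to the promoter of IL1RN. All 3 samples carried dCas9VP160, so no array shows cells without it. The label sgIL1RN1~3 is written as a range, so that array may stand for more than 1 guide. Each guide label was measured on 1 array of a transfected population, so the values carry no replicate error and no p-value is given. The precision is limited by the number of arrays. In such bulk RNA, fewer cells with a transcript and less of it per cell cannot be told apart.

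Proteasomes cut proteins in the cytosol into peptides. Under interferon, cells make PSMB8, PSMB9 and PSMB10, catalytic subunits that take the places of PSMB5, PSMB6 and PSMB7 and turn the standard particle into the immunoproteasome, which favours peptides that fit class I molecules. TAP1 and TAP2 form the pump that brings peptides into the endoplasmic reticulum, TAPBP (tapasin) holds the empty class I molecule beside the pump, and ERAP1 trims the peptides there. B2M, beta-2 microglobulin, is the light chain shared by class I molecules, and HLA-E and HLA-F encode heavy chains that are ligands of natural killer cell receptors. Most nucleated cells express the pathway at some level, and interferons raise it through sequences near the gene starts, among them the interferon-stimulated response element, bound by interferon regulatory factors, and the gamma-activated site.

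The promoters are shown because members that lay high on the same array can be compared by what precedes their starts. RefSeq's promoter table (GRCh38.p14) held 9 of the 10 genes, and HLA-E was not among them. The 250 bases before each start were searched on both strands for GAAA followed by any 2 bases and GAAA again, the core of the interferon-stimulated response element, and for the gamma-activated site TTCNNNGAA, which reads the same on both strands. The sequences follow 5′ to 3′ on the strand of the gene, whole for TAP1 and PSMB9 and as stretches around the match for the others, with capitals marking every match to either motif.
TAP1: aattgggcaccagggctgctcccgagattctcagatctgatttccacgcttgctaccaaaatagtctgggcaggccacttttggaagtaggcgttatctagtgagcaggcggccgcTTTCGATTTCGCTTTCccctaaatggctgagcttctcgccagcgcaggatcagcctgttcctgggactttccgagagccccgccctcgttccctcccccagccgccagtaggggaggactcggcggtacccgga
PSMB9: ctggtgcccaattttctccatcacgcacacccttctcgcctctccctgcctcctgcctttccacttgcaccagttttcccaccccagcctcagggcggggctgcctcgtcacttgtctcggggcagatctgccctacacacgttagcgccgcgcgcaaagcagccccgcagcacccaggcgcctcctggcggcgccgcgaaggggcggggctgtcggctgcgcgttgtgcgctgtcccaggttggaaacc
TAPBP: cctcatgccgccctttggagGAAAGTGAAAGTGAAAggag
B2M: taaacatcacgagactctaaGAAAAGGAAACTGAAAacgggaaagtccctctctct
TAP2: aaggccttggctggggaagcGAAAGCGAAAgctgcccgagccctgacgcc
PSMB10: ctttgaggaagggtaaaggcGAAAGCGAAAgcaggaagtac
HLA-F: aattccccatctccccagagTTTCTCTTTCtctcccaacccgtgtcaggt
These are chr6:32853705-32853954, minus strand, for TAP1 (the upstream of its 2 listed starts), chr6:32853942-32854191, plus strand, for PSMB9, chr6:33314079-33314118, minus strand, for TAPBP, chr15:44711353-44711408, plus strand, for B2M, chr6:32838768-32838817, minus strand, for TAP2, chr16:67936851-67936891, minus strand, for PSMB10 and chr6:29723258-29723307, plus strand, for HLA-F.

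TAP1, TAP2, TAPBP, B2M, PSMB10 and HLA-F, 6 of the 9 genes, held the response element core, each in 1 window. That is 6 of their 12 windows, since PSMB8, TAP1 and ERAP1 have 2 starts each, against 3.02% of the 35116 windows in the table. In TAP1, TAPBP and B2M, 2 matches overlapped and formed a longer run of the repeated unit, 134 to 119 bases before the TAP1 start, 20 to 5 before that of TAPBP and 144 to 129 before that of B2M. The single matches lay 58 to 49 bases before the TAP2 start, 21 to 12 before that of PSMB10 and 156 to 147 before that of HLA-F. The gamma-activated site was found before the downstream start of TAP1 and the downstream start of PSMB8, and in 6.57% of all windows. PSMB9, which showed the largest difference of the 9 members above background, and ERAP1 held neither motif in these windows. TAP1 and PSMB9 are transcribed away from each other from starts 488 bases apart. The window of PSMB9 shares 13 bases with that of TAP1, so the TAP1 matches lie in the stretch between the genes, 354 to 369 bases before the start of PSMB9 and outside the window searched for it. A match is a description of letters and not evidence that a factor bound there.

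**Figure D1:**
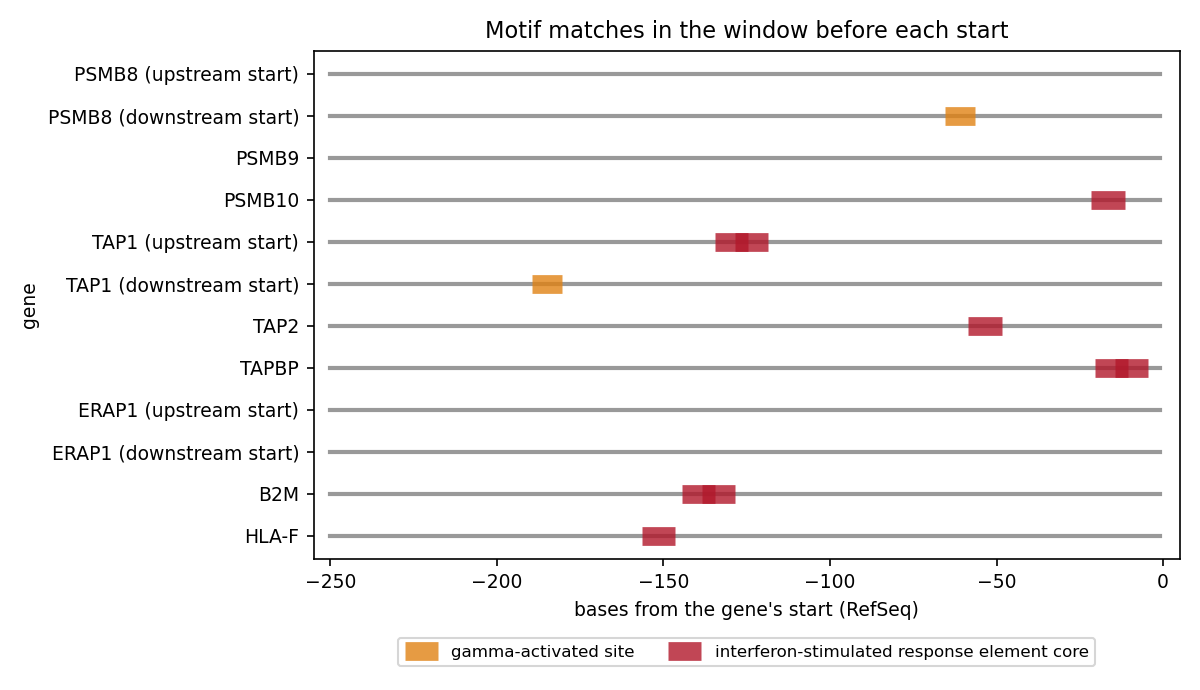
Position of motif matches in the 250 bases before each RefSeq start of the 9 genes with an entry, in bases from the start (x axis), with 1 line per start (y axis). Red blocks are the response element core, which overlaps itself in TAP1, TAPBP and B2M, and orange blocks the gamma-activated site, found before the downstream starts of TAP1 and PSMB8, while the lines of PSMB9 and ERAP1 carry no block.

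The values below are log2 intensities as the authors deposited them, so 1 unit is 2-fold. The highest of 27 probe sets for Bacillus subtilis transcripts, 3.29 on sgTetOmut and 3.40 on the other arrays, was taken as background. Values at or under it were raised to it before differences were taken, and a gene was counted when 1 array lay at least 1 log2 unit above, or below, both others. IL1RN, the target of sgIL1RN1~3, read 7.01 on that array by probe set 212657_s_at and was at background on the other arrays. Of 11963 genes with a single-symbol probe set, 9394 were above background on at least 1 array, and a gene with several sets was read from the set whose mean over the arrays was highest. Of the 10 members, 9 passed, each above background on all 3 arrays, and PSMB8 did not pass on any. Of the 22 member probe sets, 17 were above background on all arrays and 5 on none.

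The members lay higher with sgTetOmut than with the other guides, PSMB9 and TAP1 by over 2-fold and the others by less or not at all. PSMB9 and TAP1, 2 of the 9 members, passed the 2-fold limit upward on sgTetOmut, against 0.468% of all genes above background (44 of 9394), and 0 members passed it downward, against 0% of genes. At 1.5-fold the same 2 members passed, against 0.692% of genes, and at 3-fold PSMB9 did, against 0.266%. On sgTetO and on sgIL1RN1~3, 0 members were 2-fold above or below both others, where 0% and 0% of genes were above and below on sgTetO, and 0.0532% and 0.0639% on sgIL1RN1~3. By any amount, 8 of the 9 were highest on sgTetOmut, against 29% of genes, and 7 under quantile or cyclic loess scaling, where ERAP1 was not. TAP2 was the exception, highest on sgIL1RN1~3 as were 39.4% of genes. Of the 17 member sets above background 15 were highest on sgTetOmut, against 28.2% of all sets. The comparisons of sgTetO and sgIL1RN1~3 with sgTetOmut share the sgTetOmut array, so they are given side by side and are not independent.

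**Figure D2:**
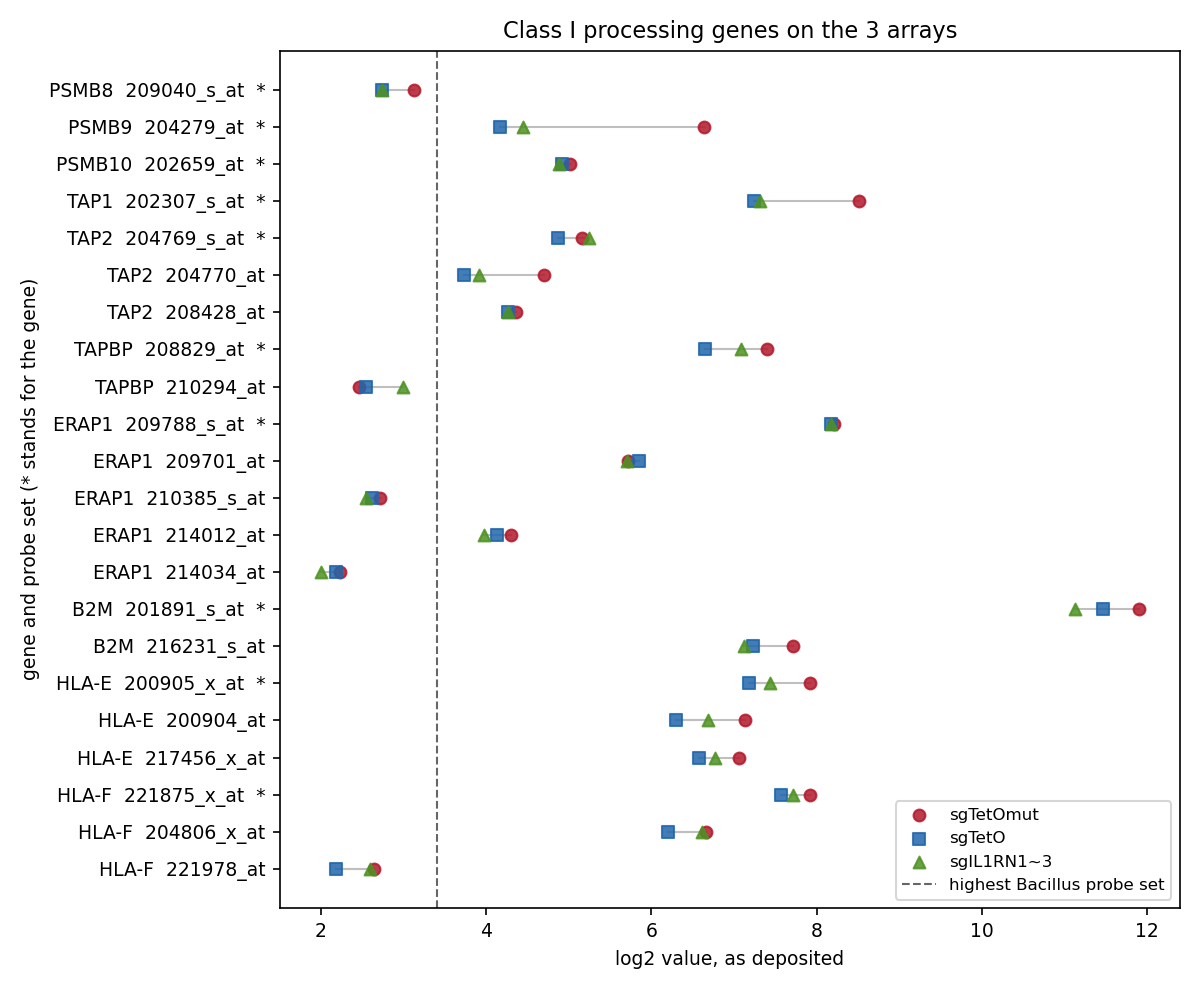
Log2 values (x axis) of the 22 probe sets of the 10 genes (y axis) on the 3 arrays, 1 point per array, with a star at the set that stands for the gene and a dashed line at the highest Bacillus probe set, 3.40. The sgTetOmut point of PSMB9 and that of TAP1 stand clear of the other 2, while the 5 sets left of the line, among them the 1 set of PSMB8, are at background.

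Of the catalytic subunits of the immunoproteasome, PSMB9 differed between arrays and PSMB10 differed by little. PSMB9 (probe set 204279_at), which replaces PSMB6 in the particle, had a log2 value of 6.64 with sgTetOmut, 4.17 with sgTetO and 4.45 with sgIL1RN1~3. The sgTetOmut value was 2.47 log2 units (5.53-fold) above sgTetO and 2.19 (4.56-fold) above sgIL1RN1~3, and the last 2 lay 0.28 apart. Ordered from the most lowered gene, PSMB9 ranked 7 of 9394 for sgTetO and 16 for sgIL1RN1~3 relative to sgTetOmut. PSMB10 (202659_at), which replaces PSMB7, had 5.01, 4.91 and 4.88 with sgTetOmut, sgTetO and sgIL1RN1~3. Its arrays differed by at most 0.13, and its promoter holds the response element core shown above. PSMB8 (209040_s_at), which replaces PSMB5, was under background on all arrays with 3.13, 2.74 and 2.74, so no fold is given for it.

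The constitutive subunits that these replace were close on all arrays. PSMB5 had 9.67 with sgTetOmut, 9.56 with sgTetO and 9.80 with sgIL1RN1~3. PSMB6 had 9.20, 9.04 and 9.41, and PSMB7 had 10.64, 10.46 and 10.45. None of these 3 was 2-fold apart from both other arrays in any direction. Relative to sgTetOmut their median difference was -0.16 on sgTetO and 0.12 on sgIL1RN1~3. Among the other core subunits 0 of 10 above background passed the limit, with medians of -0.08 and -0.04, and PSMA3, PSMA2 and PSMA4 were the furthest from the mean of the other arrays, higher by 0.33, 0.20 and 0.17 on sgTetOmut. Sets that do not stand for the gene can differ from this. By the PSMB1 set 214289_at, sgIL1RN1~3 was 1.20 below sgTetOmut and 1.06 below sgTetO, past the limit downward. Of the 6 activator and assembly genes 0 passed. PSME1, a subunit of the interferon-induced activator ring of the proteasome, read 8.75 with sgTetOmut and 8.25 on both other arrays, a difference of 0.49. POMP, which assembles the core, was 0.11 and 0.15 higher with sgTetOmut than with sgTetO and sgIL1RN1~3, and PSMG2, another assembly factor, read 9.45, 9.57 and 9.11.

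The peptide pump showed a difference in TAP1 and, depending on the probe set, in TAP2. TAP1 (202307_s_at) had 8.51 with sgTetOmut, 7.25 with sgTetO and 7.32 with sgIL1RN1~3. It was 1.26 log2 units (2.40-fold) higher with sgTetOmut than with sgTetO and 1.19 (2.28-fold) higher than with sgIL1RN1~3. It ranked 38 and 46 of 9394 for sgTetO and sgIL1RN1~3, and the last 2 arrays lay 0.07 apart. TAP2 is measured by 3 sets that disagree. Set 204769_s_at, which stands for the gene, read 5.16, 4.87 and 5.24 with sgTetOmut, sgTetO and sgIL1RN1~3, so sgIL1RN1~3 was the highest array by 0.08. Set 204770_at read 4.69, 3.73 and 3.91, with sgTetOmut 0.96 above sgTetO and 0.78 above sgIL1RN1~3, just short of the 2-fold limit and past a limit of 1.5-fold. Set 208428_at read 4.36, 4.26 and 4.26. With the mean of the 3 sets in place of the first, sgIL1RN1~3 was 0.27 below sgTetOmut. Among all probe sets above background 0.63% were 1.5-fold above both other arrays on sgTetOmut, against 3 of the 17 member sets (PSMB9, TAP1 and TAP2 204770_at), and 0.371% were 2-fold above, against 2 of the 17.

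Tapasin followed with a smaller difference. TAPBP (208829_at) had 7.40 with sgTetOmut, 6.64 with sgTetO and 7.09 with sgIL1RN1~3, so sgTetOmut was 0.76 (1.69-fold) and 0.32 (1.24-fold) higher. Its second set, 210294_at, was at background on all arrays. With the mean of both sets, which takes in that background set, TAPBP was 0.33 lower on sgTetO and 0.11 higher on sgIL1RN1~3 than on sgTetOmut. ERAP1, the trimming enzyme, was level. Its set 209788_s_at read 8.21, 8.18 and 8.18, and sgTetO turned from 0.03 below sgTetOmut to 0.02 and 0.01 above it under quantile and cyclic loess scaling. Further ERAP1 sets read 5.72, 5.85 and 5.71 (209701_at), and 4.30, 4.14 and 3.97 (214012_at), on sgTetOmut, sgTetO and sgIL1RN1~3, while 210385_s_at and 214034_at were at background. The 3 ERAP1 sets above background thus did not share an order of arrays.

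The light chain differed by under 2-fold. B2M (201891_s_at) had 11.90 with sgTetOmut, 11.46 with sgTetO and 11.12 with sgIL1RN1~3, and its second set (216231_s_at) had 7.71, 7.23 and 7.13. Both sets were thus highest with sgTetOmut and lowest with sgIL1RN1~3. By the first set sgTetOmut was 0.44 (1.36-fold) above sgTetO and 0.78 (1.71-fold) above sgIL1RN1~3. Among the 9 members B2M and PSMB10 were the 2 that lay lower on sgIL1RN1~3 than on sgTetO, by 0.34 and 0.03.

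The heavy chains HLA-E and HLA-F were highest with sgTetOmut and lowest with sgTetO in each of their 5 sets above background. HLA-E read 7.92, 7.18 and 7.43 with sgTetOmut, sgTetO and sgIL1RN1~3 by 200905_x_at, 7.13, 6.30 and 6.68 by 200904_at, and 7.06, 6.58 and 6.76 by 217456_x_at. By the first of these sgTetOmut was 0.74 (1.67-fold) above sgTetO and 0.48 (1.40-fold) above sgIL1RN1~3. HLA-F read 7.92, 7.56 and 7.72 by 221875_x_at and 6.66, 6.21 and 6.61 by 204806_x_at, and 221978_at was at background. HLA-F differed by 0.36 (1.28-fold) and 0.20 (1.15-fold) between sgTetOmut and the other arrays. The suffix _x_at marks sets whose probes can match other transcripts, and class I heavy chains are close in sequence, so these values cannot be assigned to a single heavy chain. The HLA-E set without that suffix, 200904_at, showed differences of 0.83 and 0.45.

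Read as a list, the 9 members had a median difference from sgTetOmut of -0.44 log2 units on sgTetO and -0.32 on sgIL1RN1~3, against -0.01 and 0.00 over all 9394 genes. On sgTetO all 9 were below sgTetOmut as deposited (8 of 9 under quantile or cyclic loess scaling, without ERAP1), against 52.9% of genes, and 4 were 1.5-fold below (PSMB9, TAP1, TAPBP and HLA-E), against 0.979%. On sgIL1RN1~3 8 of 9 were below sgTetOmut, against 47.4% of genes, and 3 were 1.5-fold below (PSMB9, TAP1 and B2M), against 1.71%. At 2-fold, PSMB9 and TAP1 were below in both, against 0.49% of genes for sgTetO and 0.575% for sgIL1RN1~3. The spread within the list was wide, from 2.47 for PSMB9 to 0.03 for ERAP1 on sgTetO.

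**Figure D3:**
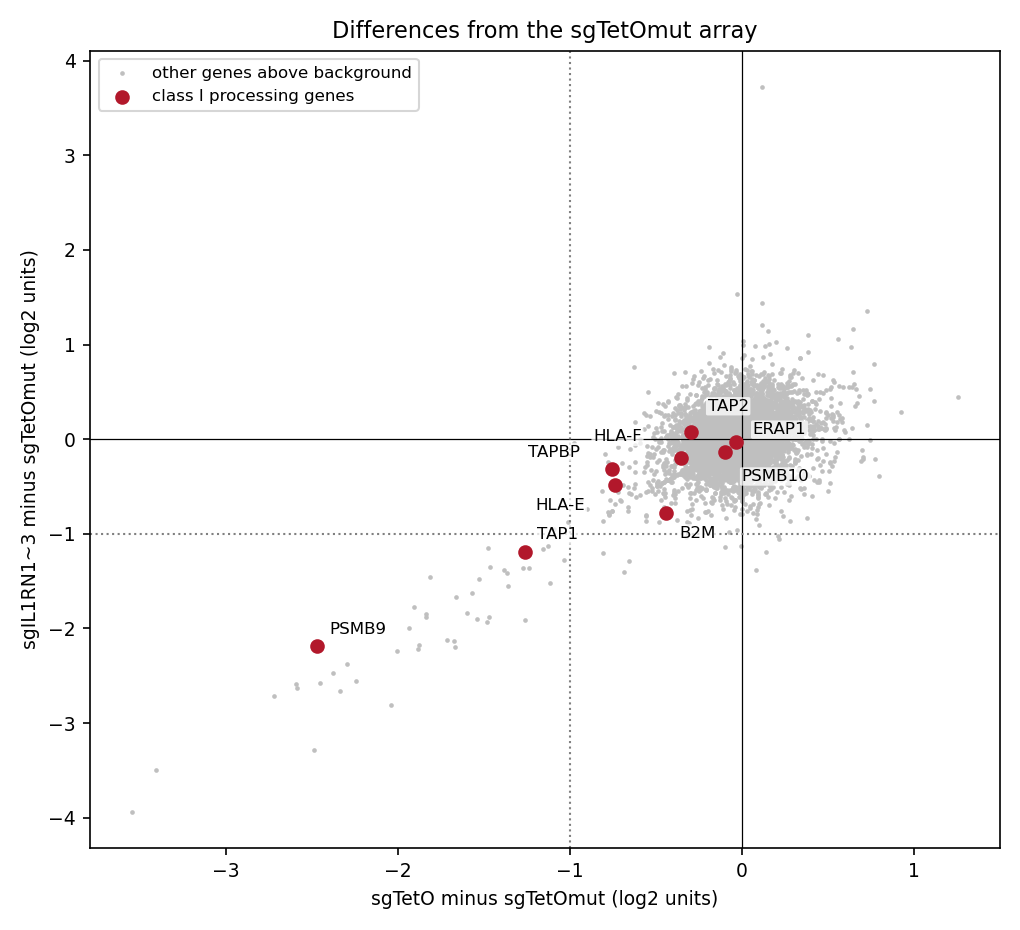
Difference from the sgTetOmut array in log2 units for sgTetO (x axis) and sgIL1RN1~3 (y axis), 1 point per gene above background, with the 9 members in red and dotted lines at 2-fold. Both axes subtract the same array, which alone spreads points along the diagonal. PSMB9 (-2.47, -2.19) and TAP1 (-1.26, -1.19) lie past both lines and the other 7 members lie within 1 log2 unit.

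Between sgIL1RN1~3 and sgTetO, the arrays with guides that have a named target, 0 members differed by 1.5-fold, against 1.65% of genes lower and 2.04% higher on sgIL1RN1~3. The members' median was 0.16 higher on sgIL1RN1~3, against 0.01 over all genes. TAPBP was 0.44 higher, TAP2 0.38, PSMB9 0.28 and HLA-E 0.26, TAP1 was 0.07 higher, ERAP1 was equal on both arrays, and 2 of 9 were lower, against 43% of genes. Over the 9 lists the medians of this difference ran from -0.02 for class II presentation to 0.31 for other class I and class I-like heavy chains. Other peptidases had 0.29, regulators 0.01 and genomic neighbours 0.02. The heavy chain median was 0.06 when each gene was read from the probe set highest on sgTetO. The chip's sets for the 5' ends of 2 control transcripts moved with this array too. The 5' set of ACTB read 8.43 with sgIL1RN1~3, 7.48 with sgTetO and 7.61 with sgTetOmut, and that of GAPDH read 9.83, 8.99 and 9.17, while their 3' sets were within 0.07 of each other across arrays. With sgIL1RN1~3, sgTetO and sgTetOmut the middle set of ACTB read 10.65, 9.96 and 10.01, and that of GAPDH 11.06, 10.48 and 10.52. The part of these control shifts in the differences of sgIL1RN1~3 from sgTetO, or from sgTetOmut, was not tested.

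Further genes of the pathway were taken from lists chosen by function. Of 9 other class I and class I-like heavy chains above background, 0 passed the 2-fold limit on sgTetOmut. HLA-C (208812_x_at) read 9.79, 9.15 and 9.21 with sgTetOmut, sgTetO and sgIL1RN1~3, and HLA-B (209140_x_at) read 10.20, 9.58 and 9.96. HLA-C was 0.65 and 0.58 higher with sgTetOmut, and HLA-B 0.62 and 0.24. By further HLA-C sets sgTetOmut minus sgTetO and minus sgIL1RN1~3 came to 0.72 and 0.53 (214459_x_at), to 0.62 and 0.60 (216526_x_at), and to 0.32 and -0.12 (211799_x_at). By the other HLA-B sets, 208729_x_at and 211911_x_at, sgTetOmut minus sgTetO was 0.51 and 0.48 and sgTetOmut minus sgIL1RN1~3 was -0.17 and 0.03. CD1D, which presents lipids, read 4.73, 4.68 and 4.21. The list's medians relative to sgTetOmut were -0.13 on sgTetO and 0.00 on sgIL1RN1~3.

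Of 8 genes of peptide loading and glycoprotein folding 0 passed the limit, with medians of -0.15 and 0.00. TAPBPL, a relative of tapasin that also edits peptides, read 3.79, 3.47 and 3.57, close to background. GANAB, which trims sugars on new glycoproteins, was 0.24 and 0.11 higher with sgTetOmut than with sgTetO and sgIL1RN1~3, and HSPA5, the chaperone BiP, read 10.92, 10.74 and 10.93. Of 8 other peptidases 0 passed, with medians of -0.04 and 0.03. LAP3, an aminopeptidase of the cytosol, read 8.87, 8.45 and 8.83, so it was low on sgTetO. BLMH and NPEPPS, which also trim peptides in the cytosol, were 0.47 and 0.44 higher on sgIL1RN1~3 than on sgTetOmut. With 0.468% of all genes past the limit, counts of 0 in lists of this size are near the background.

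Of 15 regulators above background, 1 passed the limit. IRF9, the DNA-binding subunit of a transcription factor complex formed under type I interferon, read 8.57 with sgTetOmut and 7.41 on both other arrays, 1.16 log2 units lower. IRF7 read 4.22, 3.66 and 3.38, the last at background, and differed by 0.56 and at least 0.81. IRF1, which binds the response element in class I genes, read 5.40, 4.83 and 5.05. The list's medians were -0.11 on sgTetO and -0.02 on sgIL1RN1~3. Of 10 class II presentation genes above background 0 passed, with medians of 0.00 and -0.01. HLA-DOB, which lies beside TAP2, was 0.49 and 0.55 higher with sgTetOmut, HLA-DMA was 0.13 higher than on both, and HLA-DPB1 read 4.78, 5.05 and 4.77. Of the 13 measured class II genes 10 were thus above background. HLA-DPA1 (211990_at) had the highest value, 8.25 with sgTetOmut, 8.25 with sgTetO and 8.01 with sgIL1RN1~3. Further HLA-DPA1 sets were lower, with 6.97, 7.02 and 6.76 (213537_at) and 4.98, 4.49 and 4.93 (211991_s_at) on the same arrays. HLA-DRA and CD74, which professional antigen-presenting cells express highly, and CTSS were at background on all arrays.

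**Figure D4:**
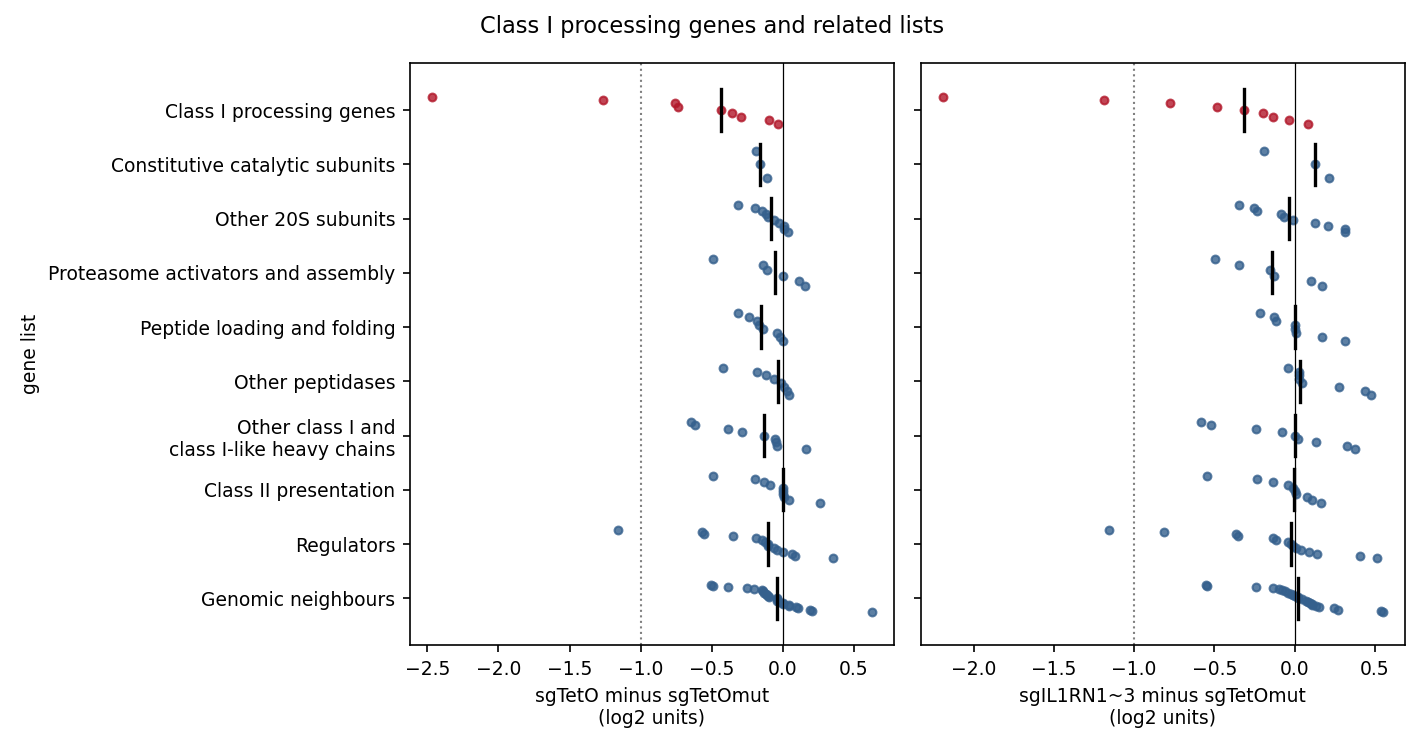
Difference from the sgTetOmut array in log2 units (x axes) for sgTetO (left) and sgIL1RN1~3 (right), 1 point per gene above background, for the class I processing genes (red) and 9 related lists (blue, y axis), with black bars at medians and dotted lines at 2-fold. Beside PSMB9 and TAP1, IRF9 among the regulators is the point past the line on both sides, at -1.16.

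The RefSeq gene table places PSMB8, PSMB9, TAP1 and TAP2 side by side on chromosome 6, between HLA-DOB and HLA-DMB as the nearest measured protein-coding genes. TAPBP, HLA-E and HLA-F lie apart from them on the same chromosome. ERAP1 is on chromosome 5, B2M on chromosome 15 and PSMB10 on chromosome 16. Of 28 neighbours, the 2 nearest measured protein-coding genes on each side of every member, 25 were above background and 0 of them passed the limit on sgTetOmut, which is near the background of 0.468%. Their medians were -0.04 and 0.02. DUOX2, next to B2M, read 3.68, 4.30 and 4.23, HLA-DOB is given above, and RIOK2, near ERAP1, read 7.93, 7.67 and 7.37.

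Across all genes, the response element core was more frequent among those past the 2-fold limit upward on sgTetOmut. Of the 44 genes past the 2-fold limit upward on sgTetOmut, 36 had a promoter entry, and 22 of these (61.1%) held the core, TAP1 among them. Among all 7672 genes above background with an entry, 267 (3.48%) held it. Read the other way, 8.24% of genes with the core and 0.189% of those without passed the limit, and 245 genes with the core, among them PSMB10, B2M, TAPBP, TAP2 and HLA-F, did not. The gamma-activated site was found in 33.3% of the 36 genes and in 7.90% of the 7672. These are counts over genes that share the same 3 arrays, given as a description with no test.

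The genes whose differences lay nearest to those of PSMB9 were SP100, a nuclear body protein, at a Euclidean distance of 0.25 log2 units, OASL, an antiviral protein related to the oligoadenylate synthetases, at 0.30, and IFNB1, interferon beta, listed at 0.39. The distance is over the 2 differences from sgTetOmut, so over 3 arrays. SP100 read 7.62, 5.32 and 5.24 with sgTetOmut, sgTetO and sgIL1RN1~3. IFNB1 read 5.98, 3.53 and 3.40, the last at background, so its difference there is a bound and its distance and place depend on the background level. Nearest to TAP1 were IRF9 at 0.11 and LAMP3, a lysosomal membrane protein, at 0.17. LAMP3 read 10.02, 8.74 and 8.66, so sgTetOmut was 1.28 and 1.36 higher. CXCL11, a chemokine, was listed between them, but it read 4.53 with sgTetOmut and was at background on the other arrays, so both its differences are bounds and its place beside TAP1 is set by the background level.

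The labelled cell line and other cell types were checked by markers. Of 8 measured markers of HEK293T's kidney and neural character, 8 were above background, and VIM, NEFL and PAX2 read 9.88, 10.06 and 5.97 with sgTetOmut. On sgIL1RN1~3 VIM and NEFL were 0.51 and 0.36 higher and PAX2 0.36 lower than on sgTetOmut. Further sets did not all follow. NEFL was 0.31 higher by 221801_x_at and 0.04 lower by 221805_at, and PAX2 read 4.08 on both arrays by 206229_x_at. Of 15 measured markers of blood and antigen-presenting cells, 13 were at background on all arrays, among them PTPRC, CD3E, MS4A1 and CSF1R. CD14 read 4.23, 3.83 and 3.89, and CD79A read 3.40, 3.40 and 3.47, with background at 3.29 on sgTetOmut and 3.40 on the other arrays. The summed linear level of these 15 markers was 108 with sgTetOmut, 106 with sgTetO and 110 with sgIL1RN1~3.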

How the data were processed

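The table deposited by the authors holds log2 values for 22277 probe sets, 1 column per array. The unit was taken from the values, which ran from 1.36 to 14.5. Per the submitters' processing notes the authors used the affy package, whose version, background correction, normalization and summary method were not given in the sources used here. Sorted values of the arrays lay within 0.104 of their mean at every rank, so a shift shared by all genes would not be seen. On 6.21% to 8.25% of probe sets a pair of arrays held equal values, among them 3 of the member sets.

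GEO's annotation gave 19070 sets 1 symbol, 1043 several and 2164 none or no entry, and no set with several symbols named a member. Named genes were all members, list genes past the limit, the 3 of each list furthest from the mean of the other arrays, and the 3 genes nearest to each member past the limit. Members and lists were chosen with earlier results of these data known, and the motifs after the values were seen. Computation used Python 3.11.15, numpy 2.4.6 and pandas 2.3.3, with alternative scaling by limma 3.58.1 in R 4.3.3. Alternatives changed scaling, background, probe set choice and limit. No test between guides was possible with 1 array each.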

Additional observations from a re-analysis of the deposited data

How the results depend on the processing

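Under each alternative run here 2 member genes were past the limit upward on sgTetOmut, except at a limit of 3-fold, where 1 member gene and 1 member probe set passed (PSMB9). At that limit 25 of all genes were above both others on sgTetOmut and 0 genes of the lists were. The members' median of sgTetO minus sgTetOmut ranged from -0.74 to -0.38, and was -0.74 with a minimum level at the median of all genes, which left 7 members. That of sgIL1RN1~3 minus sgTetOmut ranged from -0.48 to -0.24, and that of sgIL1RN1~3 minus sgTetO from 0.09 to 0.19. With 16 added to the linear values the PSMB9 differences shrank to -1.77 and -1.61, since this offset compresses low values. Of 183 recomputed member differences 4 changed sign, all at ERAP1, TAP2 or TAPBP as given above. A limit of 1.5-fold counted 65 genes on sgTetOmut. No paired analysis was possible because each guide label has 1 array and the labels give no replicate numbers. Values near the highest Bacillus probe set bound a fold and do not measure it, as for PSMB8.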

Other observations

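The MHC region was examined as a whole after the data were seen. Between HLA-F and TAPBP on chromosome 6 the RefSeq gene table placed 104 measured genes that are not members, and 84 of them were above background. On sgTetOmut 0 of the 84 were 2-fold, and 0 were 1.5-fold, above both other arrays, against 0.468% and 0.692% of all genes, and 0 were 2-fold below, so these counts are near the background. HLA-B and HLA-C, 2 of the 84, were 1.5-fold lower on sgTetO than on sgTetOmut, against 0.979% of genes. Both were read from _x_at sets, which cannot be assigned to a single heavy chain. By other sets sgTetOmut minus sgTetO was 0.51 and 0.48 for HLA-B (208729_x_at and 211911_x_at) and 0.32 for HLA-C (211799_x_at), short of 1.5-fold. HLA-C sets 214459_x_at and 216526_x_at passed it, with 0.72 and 0.62. On sgIL1RN1~3 1 gene, LY6G5C, was 1.5-fold lower than on sgTetOmut, against 1.71%, and 3 (AGPAT1, DHX16 and TNXB) were 1.5-fold higher, against 1.38%. The sgTetOmut array was the highest for 27.4% of the 84, against 29% of all genes. Their median difference from sgTetOmut was -0.03 on sgTetO and 0.10 on sgIL1RN1~3. Furthest above both others on sgTetOmut were HLA-C, short of 1.5-fold with 0.58, COL11A2, a fibrillar collagen chain, which read 5.49, 4.97 and 4.95 with sgTetOmut, sgTetO and sgIL1RN1~3, and HLA-DOB.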
